A study of Mus musculus with 6 samples.

Results

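The genes described here encode the cytosolic ribosomal proteins of the mouse. They were chosen by symbol, as every row of the gene table named Rpl or Rps with a number and at most 1 of the letters a, l, x or y, together with Rplp0, Rplp1, Rplp2 and Rpsa, and without Rps27l. The rule found 81 of 25239 rows: 50 genes of the large subunit and 31 of the small subunit. In the GENCODE annotation 79 of them are protein coding, Rps4l is a transcribed processed pseudogene and Rpl32l a processed pseudogene. The genes lie on 19 chromosomes, with 14 on chromosome 7 and 4 on chromosome X. The symbols leave out some proteins of the ribosome, such as Fau and Rps3a1, which are given separately.

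RNA was sequenced from mouse primary pulmonary fibroblasts, 3 libraries labelled quiescent (PF-Quie) and 3 labelled Nutlin 3a-induced senescent (PF-nSene). Nutlin 3a releases p53 from its inhibitor Mdm2. By the labels, cells of both groups were grown in DMEM with 10% serum and antibiotics at 5% oxygen. The treatment described is 16 hours of RO3306, an inhibitor of Cdk1, followed by 48 hours of Nutlin 3a, and then 100 nM BI-2536, an inhibitor of Plk1, to remove dividing cells, over 12 days in all. That description is attached to the quiescent libraries too, and the way in which they were brought to rest is not stated in the sources available. Nothing in the labels tells whether the 3 libraries of a group had separate cultures or animals as their source. The p-values therefore reflect the spread among these libraries alone, and that spread may be technical.

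The ribosome is the particle that reads mRNA and joins amino acids into protein. Its small subunit holds the mRNA and decodes it, and its large subunit joins the amino acids and lets the new chain out through a tunnel. Each subunit is built in the nucleolus from ribosomal RNA and ribosomal proteins, which are needed in matched amounts although their genes are scattered over the genome. Mammalian ribosomal protein mRNAs typically begin with a short run of pyrimidines (C and T), called a TOP sequence, through which the kinase mTORC1 and the RNA-binding protein Larp1 control their translation and stability together. When ribosome assembly fails, free Rpl5 and Rpl11, bound to 5S ribosomal RNA, can bind Mdm2 and raise p53, the same protein that Nutlin 3a releases.

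Long pyrimidine runs near the start site, before or after it, were more common in these genes than over all genes. Most members with a start sequence had none of at least 8 bases. For comparison, 5 genes that rose, 3 that fell and 2 that did not pass the test are shown. They were picked, and most of them hold a longer run than the median member. Each sequence is the 30 bases around an annotated start in RefSeq (GRCm38.p6), from 15 bases before it to 15 bases after it. It is read 5′ to 3′ on the gene's strand, with the longest run of C or T in capitals. For a gene with several annotated starts, the start whose window held the longest run was used. This holds for all run lengths and counts of runs below, which are therefore maxima over the starts of a gene.
Rpl28, chr7:4792950-4792979, plus strand: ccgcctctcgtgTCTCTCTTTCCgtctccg
Rplp2, chr7:141447636-141447665, plus strand: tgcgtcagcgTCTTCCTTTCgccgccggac
Rpl38, chr11:114668565-114668594, plus strand: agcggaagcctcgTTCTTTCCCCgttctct
Rpl35, chr2:39005117-39005146, minus strand: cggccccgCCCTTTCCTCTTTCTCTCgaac
Rpl12, chr2:32961697-32961726, plus strand: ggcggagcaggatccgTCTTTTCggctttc
Rpl27a, chr7:109519180-109519209, plus strand: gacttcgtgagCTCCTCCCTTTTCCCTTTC
Rpl7a, chr2:26910792-26910821, plus strand: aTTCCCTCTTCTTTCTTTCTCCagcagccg
Rps4x, chrX:102189377-102189406, minus strand: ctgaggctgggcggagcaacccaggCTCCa
Rps6, chr4:86857353-86857382, minus strand: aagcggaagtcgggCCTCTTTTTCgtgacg
Rpl15, chr14:18270972-18271001, minus strand: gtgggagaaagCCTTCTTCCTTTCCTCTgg

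Of the 81 genes, 60 had an entry in the RefSeq promoter table. The longest pyrimidine run in the window, taken over all entries of a gene, had a median of 7 bases in these 60. Over all 27025 genes in the table, which held 32851 entries, the median was 5 bases. A run of at least 8 bases was present in 26 of the 60 (43.3%), beside 13.9% of all genes. Long runs stood both at genes that rose and at genes that fell in senescent cells: the run was 11 bases in Rpl28 and 18 in Rpl35, which rose, and 21 in Rpl7a and 19 in Rpl27a, which fell. Rps4x, the member with the lowest fold change, had a run of 4 bases. Among the 26 genes with a run of at least 8 bases, all tested, 10 rose and 2 fell, with a median log2 fold change of 0.10. Among the 30 tested genes with shorter runs 12 rose and 2 fell, with a median of 0.13. A run could lie anywhere in the window, and some ended before the annotated start, as in Rpl4 (11 bases) and Rpl13 (9 bases). This split therefore does not sort the genes by TOP sequence. A motif search covered all 300-base entries of a gene, on both strands, from 250 bases before the start to 50 after it. CCGGAAG, the core bound by ETS factors of the GABP type, was found in 24 of the 60 (40%) beside 9.93% of all genes. AAGATGG, the core of the YY1 motif, was in 9 (15%) beside 7.28%, and TATAAA, the TATA box, in 7 (11.7%) beside 15.7%. A match describes the letters and not binding.

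Library totals ran from 93736593 to 109706025 counts, of which 79.8% to 82.8% fell on 3 rows, Rn45s (the ribosomal RNA precursor), Lars2 and Mir6236, called the ribosomal rows here. All other genes summed to 18219831 to 21386546 counts, and the ribosomal protein genes to 186296 to 229121. Levels are given as CPM, counts scaled to the TMM-adjusted library total in the usual way, and are low because that total includes the ribosomal rows. In RNA from a whole culture, fewer cells of a kind and less RNA per cell cannot be told apart. As a check of the labels, Cdkn1a, the p53 target that stops the cell cycle, had a log2 fold change of 1.14, Mdm2, another p53 target, 0.95, and the proliferation genes Mki67 and Top2a -2.33 and -1.98.

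Ribosomal protein mRNAs moved little between quiescent and senescent fibroblasts, and more of them were higher than lower under TMM scaling, a balance that turned around when libraries were scaled by their totals. Of the 77 genes with enough counts for the test, 27 were higher in senescent cells, 8 were lower and 42 did not pass (edgeR quasi-likelihood test, adjusted p below 0.05 over all genes tested). The called share was 45.5%, beside 74.5% over all 14065 genes tested, of which 36.7% were higher and 37.8% lower. With library totals as the scaling, 3 members were higher and 40 lower, beside 21.0% and 52.9% of all genes. The median size of a change, without its sign, was 0.14 on the log2 scale for the ribosomal protein genes and 0.50 for all genes. Only 6 of the 77 (7.79%) changed by more than 0.5 on the log2 scale, beside 50.2% of all genes, and none by more than 1, beside 25.3%. The log2 fold changes ran from -0.33 to 0.74 with a median of 0.09, beside a median of -0.02 over all genes.

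The 27 genes that were higher comprised 17 of 46 tested genes of the large subunit (Rpl28, Rpl12, Rpl38, Rplp2, Rpl34, Rpl35a, Rpl35, Rplp1, Rpl36, Rpl5, Rpl8, Rpl13, Rpl10, Rpl37, Rpl13a, Rpl18 and Rpl22) and 10 of 31 of the small subunit (among them Rps27a, Rps13, Rps25, Rps2, Rps10, Rps23, Rps3, Rps19 and Rpsa). The 8 that were lower comprised 6 of the large subunit (Rpl21, Rpl10a, Rpl27a, Rpl7a, Rpl32 and Rpl7) and 2 of the small subunit (Rps4x and Rps14). In 34 of the 77 genes all 3 senescent libraries lay above all 3 quiescent libraries, and in 9 all lay below. The share without overlap was 55.8%, beside 78.3% of all genes.

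When each library was left out in turn, 20 of the 27 higher calls and 3 of the 8 lower calls passed in all 6 fits. The count of lower genes fell to 5 without any 1 of the quiescent libraries and to 3 without senescent replicate 1, and it was 13 without senescent replicate 3. The 3 lower calls that passed in every fit were Rps4x, Rpl21 and Rpl10a. Rpl27a lost its call without quiescent replicate 3 or senescent replicate 1. Rpl32 lost it without quiescent replicate 1 or 2 or senescent replicate 1. Among these fits Rpl7a kept its call only without quiescent replicate 2 or senescent replicate 3, and Rps14 only without quiescent replicate 1 or senescent replicate 3. Rpl7 lost it without each quiescent library and without senescent replicate 1. The 7 higher calls that were lost in at least 1 fit were Rpl10, Rpl13a, Rpl18, Rpl22, Rpl37, Rps10 and Rps19, whose adjusted p in the edgeR fit of all 6 libraries was between 0.015 and 0.041.

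**Figure D1:**
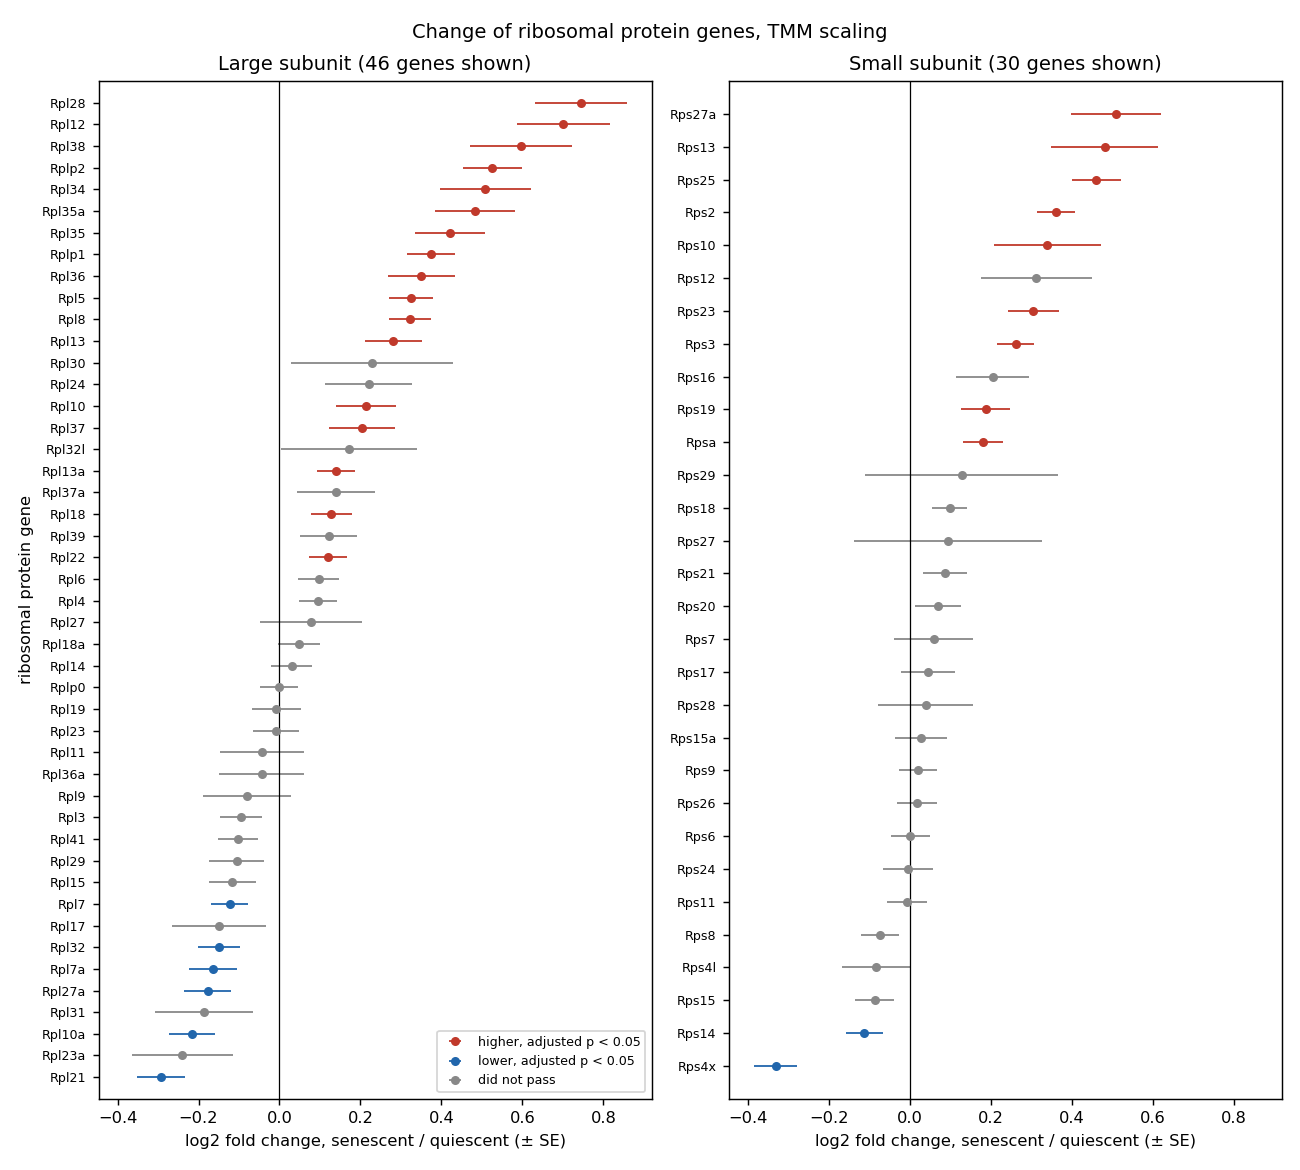
Log2 fold change, senescent over quiescent, of 76 of the 77 tested ribosomal protein genes under TMM scaling (horizontal axis, bars are standard errors), with 46 genes of the large subunit on the left and 30 of the small subunit on the right. Red marks 26 genes that were higher, blue the 8 that were lower and grey the 42 that did not pass; the values run from -0.33 in Rps4x to 0.74 in Rpl28.

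Among proteins of the large subunit, the highest fold change was that of Rpl28 (chr7:4792874-4795066, plus strand, GRCm38). Its CPM was 2.41, 2.56 and 2.20 in the quiescent libraries and 3.78, 3.52 and 4.70 in the senescent ones. The senescent libraries were all above the quiescent ones, with a log2 fold change of 0.74 ± 0.11 (SE; edgeR adjusted p = 1.0e-04).

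The stalk of the large subunit is the flexible arm that recruits and activates the elongation factors, and 3 of its 4 proteins rose. Rpl12 (chr2:32961559-32965345, plus strand), which sits at the base of the stalk, had CPM of 2.22, 2.14 and 2.22 in quiescent and 3.39, 3.05 and 4.23 in senescent libraries, a log2 fold change of 0.70 ± 0.11 (SE; edgeR adjusted p = 1.8e-04). Rplp2 (chr7:141447370-141451585, plus strand), 1 of the acidic proteins at the tip, had CPM of 9.67, 8.60 and 9.60 against 12.4, 13.0 and 14.7. Its log2 fold change was 0.53 ± 0.07 (SE; edgeR adjusted p = 4.4e-05). Rplp1, the partner of Rplp2 in the stalk, had a log2 fold change of 0.38 ± 0.06 (SE). Rplp0, which anchors both, had CPM of 83.9, 78.0 and 81.5 in quiescent and 81.0, 81.7 and 80.5 in senescent libraries, a log2 fold change of 0.00 ± 0.05 (SE; edgeR adjusted p = 0.98). The groups overlapped for Rplp0 and were apart for the other 3 stalk genes. With library totals the stalk count was 2 higher (Rpl12 and Rplp2) and 1 lower (Rplp0). Counts in this and the later gene lists stand beside 36.7% higher and 37.8% lower over all genes tested. With library totals those shares were 21.0% and 52.9%.

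Of the pair that forms the 5S particle and can bind Mdm2, Rpl5 rose and Rpl11 did not pass. Rpl5 had CPM of 11.2, 11.01 and 11.1 in quiescent and 13.5, 14.7 and 13.5 in senescent libraries, without overlap. Its log2 fold change was 0.33 ± 0.05 (SE; edgeR adjusted p = 1.9e-04), and 0.02 (adjusted p = 0.79) with library totals. Rpl11 had CPM of 3.28, 2.79 and 3.40 against 2.68, 3.20 and 3.30, which overlapped. Of the 100-base windows of the mRNA, 8.89% in Rpl5 and 40.3% in Rpl11 were found in no other gene, a limit described below. In the wider group of 6 ribosomal proteins reported to bind Mdm2 or act on p53, 5 were tested, Rpl5 and Rps3 rose and none fell, beside 2 lower with library totals. Rpl23 and Rps7 did not pass, with log2 fold changes of -0.01 and 0.06, and Rpl26 was counted at 0 in every library.

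Of the proteins around the exit tunnel and its mouth, 8 of 9 were tested; Rpl35 and Rpl22 rose and none fell, whereas 7 were lower with library totals. Rpl35, at the mouth of the tunnel, had a log2 fold change of 0.42 ± 0.09 (SE). Rpl22, which also binds particular mRNAs in other tissues, was near the threshold at 0.12 ± 0.05 (SE; edgeR adjusted p = 0.036). Rpl4, which lines the tunnel, had CPM of 179, 173 and 177 in quiescent and 185, 192 and 188 in senescent libraries. The senescent libraries of Rpl4 were all above the quiescent ones, yet with a log2 fold change of 0.10 it did not pass (edgeR adjusted p = 0.086). Rpl4 passed as higher without senescent replicate 3 and with DESeq2 (DESeq2 adjusted p = 0.047). With library totals it was called lower at -0.20 (edgeR adjusted p = 0.029). Rpl39, also in the tunnel, had a log2 fold change of 0.12 and did not pass. Among the single-library omissions it passed only without senescent replicate 1. With library totals Rpl39 was called lower at -0.18 (edgeR adjusted p = 0.046). Rpl23a and Rpl31, both at the tunnel mouth, had log2 fold changes of -0.24 and -0.19 with standard errors of 0.13 and 0.12, and their groups overlapped.

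Of the 3 proteins that reach toward the peptidyl transferase centre, where amino acids are joined, Rpl8 and Rpl10 rose, and with library totals none was higher and 1 was lower. Rpl8 had a log2 fold change of 0.32 ± 0.05 (SE), Rpl10 0.21 ± 0.07 (SE) and Rpl3 -0.09 ± 0.05 (SE). Rpl10 lost its call without quiescent replicate 1 or 3. Rpl3 did not pass (edgeR adjusted p = 0.12) and was called lower only when senescent replicate 3 was left out, among the single-library omissions.

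Other proteins of the large subunit included Rpl38 and Rpl34, which rose, and Rpl21, Rpl10a and Rpl27a, which fell. Rpl38, known from mice with changed skeletal patterning, had CPM of 0.941, 0.826 and 1.04 in quiescent and 1.47, 1.26 and 1.49 in senescent libraries, a log2 fold change of 0.60 ± 0.13 (SE; edgeR adjusted p = 0.0012). Rpl34 had CPM of 1.55, 2.07 and 2.09 against 2.66, 2.74 and 2.74, a log2 fold change of 0.51 ± 0.11 (SE). Rpl21 (chr5:146832890-146837032, plus strand) had CPM of 15.1, 14.1 and 13.8 in quiescent and 11.6, 12.5 and 11.1 in senescent libraries. Its log2 fold change was -0.29 ± 0.06 (SE; edgeR adjusted p = 9.1e-04). The groups did not overlap for Rpl38, Rpl34 or Rpl21. Rpl10a, with CPM of 19.0, 16.7 and 17.8 against 15.2, 15.2 and 15.6, had a log2 fold change of -0.22 ± 0.06 (SE), and Rpl27a one of -0.18 ± 0.06 (SE). Rpl13a, which has a described role outside the ribosome in silencing inflammatory mRNAs, had a log2 fold change of 0.14 ± 0.05 (SE) and lost its call in 4 of the 6 leave-one-out fits.

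Among proteins of the small subunit the lowest fold change was that of Rps4x, the X-linked Rps4 gene (chrX:102184941-102189394, minus strand). Its CPM was 33.8, 33.7 and 32.4 in quiescent and 27.0, 27.7 and 24.7 in senescent libraries, without overlap. The log2 fold change was -0.33 ± 0.05 (SE; edgeR adjusted p = 1.4e-04).

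Along the channel through which the small subunit threads and reads mRNA, 4 of 7 proteins rose and none fell, and with library totals none was higher and 2 were lower. Rps2 had CPM of 50.7, 51.7 and 52.6 in quiescent and 64.04, 66.5 and 68.2 in senescent libraries, a log2 fold change of 0.36 ± 0.05 (SE; edgeR adjusted p = 2.4e-05). Rps3, which lies at the mRNA entry and also takes part in DNA repair, had CPM of 165, 164 and 165 against 194, 199 and 199. Its log2 fold change was 0.26 ± 0.05 (SE), and -0.04 (edgeR adjusted p = 0.68) with library totals. Within each group the 3 libraries of Rps3 differed far less than the groups did. Rps23, at the decoding centre, had a log2 fold change of 0.30 ± 0.06 (SE), and Rpsa, also known as the laminin receptor, 0.18 ± 0.05 (SE).

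In the head of the small subunit 5 of 11 proteins rose and none fell, and with library totals none was higher and 3 were lower. Rps27a, made as a fusion with ubiquitin, had CPM of 1.45, 1.35 and 1.59 in quiescent and 1.83, 2.17 and 2.23 in senescent libraries. Its log2 fold change of 0.51 ± 0.11 (SE; edgeR adjusted p = 0.0014) was the highest of the small subunit. Rps25, which helps viral and some cellular mRNAs start translation without a cap, had CPM of 8.71, 8.57 and 9.19 against 12.5, 12.6 and 11.3. Its log2 fold change was 0.46 ± 0.06 (SE; edgeR adjusted p = 3.0e-05). The groups overlapped for neither gene. Rps19, the gene most often mutated in Diamond-Blackfan anaemia, had a log2 fold change of 0.19 ± 0.06 (SE) with a call that was lost without quiescent replicate 1 or 2 or senescent replicate 2.

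Of 12 tested genes linked to Diamond-Blackfan anaemia, an inherited failure of red cell production, 4 rose (Rpl35a, Rps10, Rpl5 and Rps19) and none fell, and with library totals none was higher and 5 were lower. Rpl35a had a log2 fold change of 0.48 ± 0.10 (SE), and Rps10 one of 0.34 ± 0.13 (SE), with a call lost in 4 of the 6 leave-one-out fits. Rps6, the small subunit protein that S6 kinase phosphorylates downstream of mTORC1, had CPM of 34.7, 34.3 and 33.3 in quiescent and 34.0, 35.7 and 32.8 in senescent libraries. The groups overlapped for Rps6, with a log2 fold change of 0.00 ± 0.05 (SE; edgeR adjusted p = 0.99), and with library totals it was called lower at -0.30. Rps14 had CPM of 82.6, 86.8 and 84.6 against 78.1, 78.1 and 78.6, a log2 fold change of -0.11 ± 0.04 (SE; edgeR adjusted p = 0.038).

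**Figure D2:**
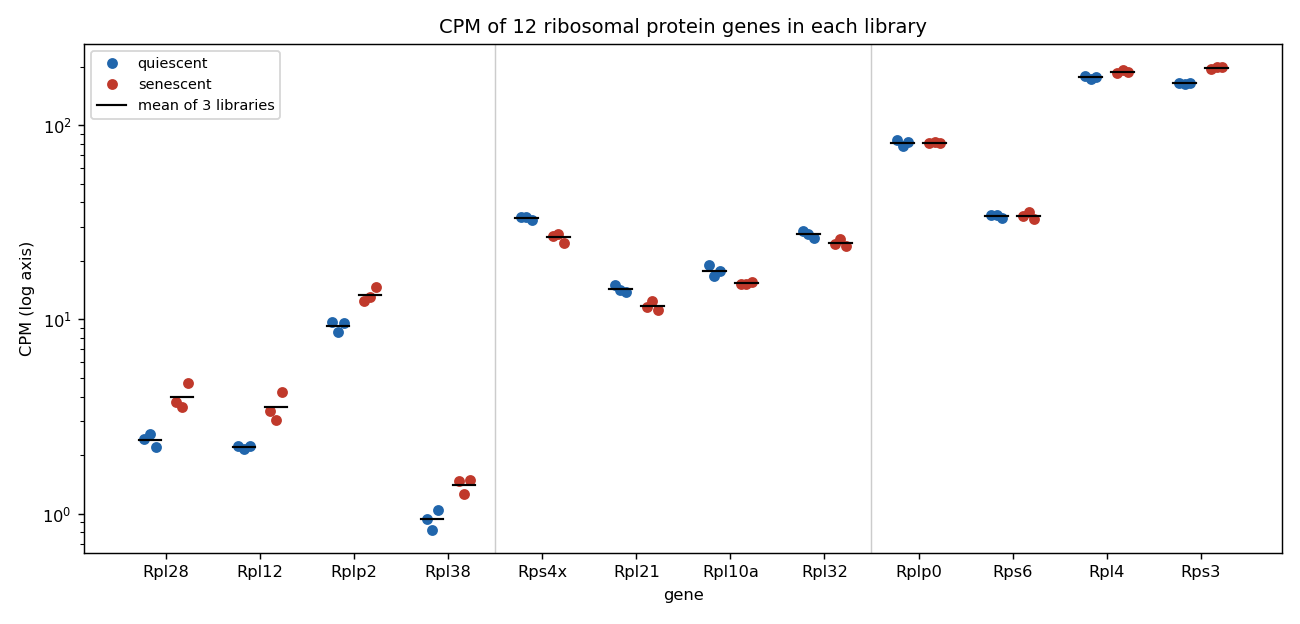
CPM on a log axis of Rpl28, Rpl12, Rplp2 and Rpl38 (left), Rps4x, Rpl21, Rpl10a and Rpl32 (middle) and Rplp0, Rps6, Rpl4 and Rps3 (right); points are the 3 quiescent (blue) and 3 senescent (red) libraries and lines are group means. Senescent libraries lie above for the left genes and Rps3 and below for the middle ones, while those of Rplp0 and Rps6 overlap with the quiescent ones.

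Because the changes were small, the test was repeated under 7 scalings. With RLE size factors 30 genes were higher and 6 lower, beside 37.4% and 36.8% of all genes; with upper-quartile scaling 19 and 15, beside 31.8% and 42.7% of all genes, and with TMM computed without the ribosomal rows 27 and 8, beside 36.7% and 37.9%. With the totals of all genes outside the ribosomal rows 10 were higher and 37 lower, beside 26.1% and 50.2% of all genes. With the summed ribosomal protein counts as the library size, which removes any move of the whole family, 19 were higher and 15 lower, beside 32.5% and 41.5%. The median of the ribosomal protein genes ran from -0.20 (library totals) to 0.11 (RLE), and that of all genes from -0.32 to -0.01. The scalings by library totals and by totals without ribosomal rows thus shifted the median of all genes from -0.02 to -0.32 and -0.24. A scaling moves all genes by about the same amount, so the gap between the medians of the ribosomal protein genes and of all genes is nearly fixed across scalings and is a single observation.

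Rpl12, Rpl28 and Rplp2 were called higher under all 7 scalings, and Rpl10a, Rpl21, Rpl27a, Rpl32, Rpl7a and Rps4x were called lower under all 7. Across them the log2 fold change ran from 0.45 to 0.76 for Rpl28, from 0.41 to 0.72 for Rpl12 and from 0.23 to 0.54 for Rplp2. For Rps4x it ran from -0.63 to -0.32, for Rpl21 from -0.60 to -0.28 and for Rpl10a from -0.51 to -0.20. These 6 were the genes among those 9 whose call also passed in every leave-one-out fit. Of the 27 genes higher under TMM, 10 had a log2 fold change below 0 with library totals (among them Rpl22, Rpl18, Rpl13a, Rpsa, Rps19, Rpl37, Rpl10, Rps3 and Rpl13), of which 1 was called lower. Rpl22 and Rps18 were called higher under some scalings and lower under others, and 9 members were called under none.

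**Figure D3:**
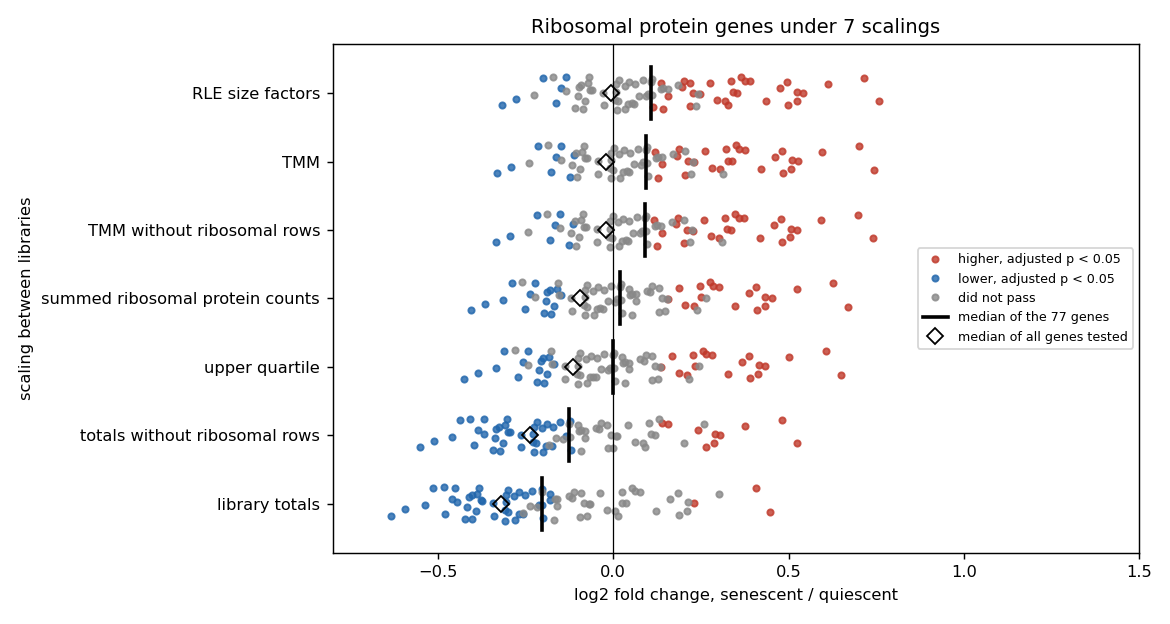
Log2 fold change, senescent over quiescent, of the 77 tested ribosomal protein genes (points) under 7 ways of scaling the libraries; the thick line is their median, the diamond the median of all genes tested, and points are spread vertically at random. Red points were called higher and blue points lower; the balance runs from 30 higher and 6 lower with RLE to 3 and 40 with library totals, and the line and the diamond shift together from row to row.

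As a sum, ribosomal protein genes held less of the counts in each senescent library than in any quiescent one. Their share of the counts outside the ribosomal rows was 1.13%, 1.09% and 1.12% in the quiescent libraries and 0.992%, 1.02% and 0.997% in the senescent ones. The means were 1.11% ± 0.0201 and 1.00% ± 0.0164 (SD, n = 3 each), and the groups did not overlap (exact two-sided permutation p = 0.1, the smallest that 3 against 3 allows). Of all counts the share was 0.217% ± 0.00934 and 0.186% ± 0.00939 (SD, n = 3 each; exact permutation p = 0.1). This share uses totals and follows the genes with most counts, whereas the TMM median weighs genes equally. Divided by the TMM-adjusted totals instead, the same sums were higher in all senescent libraries. Under TMM the 20 tested protein-coding members with the highest CPM had a median log2 fold change of 0.096, with 7 higher and 3 lower. The direction of the sum thus depends on the scaling. The 5 members with most counts, Rpl41, Rpl4, Rps3, Rpl13a and Rps14, held 39.2% of the family's counts, and the first 10 held 56.2%. Rpl41, which encodes a very short peptide, had CPM of 213, 202 and 204 in quiescent and 194, 194 and 189 in senescent libraries. The senescent libraries of Rpl41 were all lower, with a log2 fold change of -0.10 that did not pass (edgeR adjusted p = 0.076) but did pass with limma-voom.

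The balance between the subunits was compared within each library, where scaling plays no part. The log2 ratio of small to large subunit counts was -0.50, -0.45 and -0.49 in quiescent and -0.42, -0.45 and -0.44 in senescent libraries. The senescent libraries were all above the quiescent ones, by 0.05 on average (exact permutation p = 0.1). With the mean log2 CPM of each subunit in place of the sum the difference was 0.00 (exact permutation p = 0.9), and without the 3 genes with most counts in each subunit it was 0.03 (exact permutation p = 0.3).

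**Figure D4:**
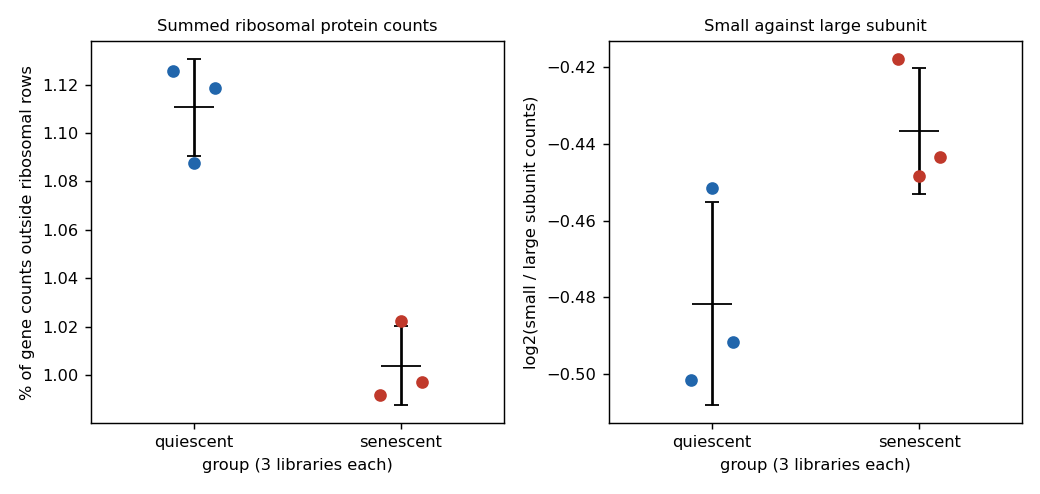
Left, summed ribosomal protein counts as percent of gene counts outside the ribosomal rows; right, log2 ratio of small to large subunit counts, for 3 libraries of each group (points), with the mean and SD in black; neither axis starts at 0. The share lies between 0.992% and 1.13%, lower in all senescent libraries, and the ratio between -0.50 and -0.42, higher in all senescent libraries.

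Many ribosomal protein genes have processed copies elsewhere in the genome that share their sequence, and how reads with more than 1 position were counted is not given in the sources used. Counted levels therefore need not rank the genes by true abundance. Of the 100-base windows of each mRNA, the share found in no other annotated gene ranged from 1.63% in Rps27 to 100% in genes such as Rps3, Rpl22, Rpl32 and Rps21. Only exact matches over all 100 bases counted, and genes overlapping on the same strand were left out. A copy with mismatches can thus leave windows counted as unique, so the share does not measure all sharing. Across the 75 tested protein-coding genes this share had a rank correlation (Spearman's rho) of 0.50 with the mean CPM and of 0.00 with the log2 fold change. These are descriptions over genes that share libraries and are not independent. The 20 genes with the lowest CPM, from 0.219 to 2.87, had a median of 37.1% unique windows, and the 20 with the highest CPM, from 29.4 to 199, a median of 80.5%. Among 29 genes with at least 75% unique windows 10 rose and 3 fell, with a median log2 fold change of 0.09, and among 46 below that 17 rose and 5 fell, with a median of 0.10.

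Rps27 shows the extent of such sharing. Its row had a mean of 23 counts per library and a CPM of 0.189 to 0.254, and only 4 of its 246 windows were unique. The first 60 coding bases are shown because they separate Rps27l from Rps27 and its retrocopy Rps27rt, but not Rps27 from Rps27rt. Rps27 and Rps27rt were identical here and over all 252 coding bases. Rps27l, a p53 target, differed from Rps27 at 18 of these 60 bases and at 60 of 252. Capitals mark bases that differ from Rps27. The sequences are GENCODE transcripts on GRCm38, with Rps27 at chr3:90212522-90213651, minus strand, and Rps27l at chr9:66946086-66949516, plus strand.
Rps27: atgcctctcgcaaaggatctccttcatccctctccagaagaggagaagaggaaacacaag
Rps27rt: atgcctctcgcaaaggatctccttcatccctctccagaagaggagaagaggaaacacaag
Rps27l: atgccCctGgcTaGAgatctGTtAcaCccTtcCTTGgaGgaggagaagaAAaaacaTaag

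Rps27rt was counted at 0 in all libraries. Rps27 did not pass, with a log2 fold change of 0.09 ± 0.23 (SE; edgeR adjusted p = 0.73). Rps27l, whose windows were all unique, had 1192 to 1670 counts per library and a log2 fold change of 0.00 ± 0.06 (SE). Rpl26, on chromosome 11, had 63.2% unique windows and was listed at 0 counts in all 6 libraries. The other genes below the filter were Rpl10l, at 0 in all, Rpl3l, with 0, 6 and 2 counts in quiescent and 1, 2 and 2 in senescent libraries, and Rpl39l, with 3, 0 and 3 against 9, 5 and 5. Rpl3l is known from striated muscle, and Rpl10l and Rpl39l from the testis. Rpl30 and Rps29 were also low, at a mean CPM of 0.276 and 0.306, and neither passed. Their unique windows were 34.4% and 75.3%, so the low level of Rps29 stood beside a high unique share.

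The table also held 9 rows named as ribosomal protein pseudogenes. Rps6-ps4 had 6406 to 8630 counts per library and Rpl14-ps1 5016 to 6305, more than the rows of Rps6 and Rpl14, which had means of 3540 and 1022. The pseudogene rows, which are not among the 81 genes, summed to 8.09% ± 0.239 of the counts of those genes in quiescent and 7.76% ± 0.164 in senescent libraries (SD, n = 3 each; exact permutation p = 0.2). Rps18-ps4 was called higher at 0.13 (edgeR adjusted p = 0.033), and the other pseudogene rows that were tested did not pass. The retrocopy row Rpl37rt had 1171 to 1449 counts and a log2 fold change of 0.32 (edgeR adjusted p = 3.5e-04), while Rpl37 itself had a mean of 294 counts and a log2 fold change of 0.20. The part of copies in the levels and calls was not tested.

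**Figure D5:**
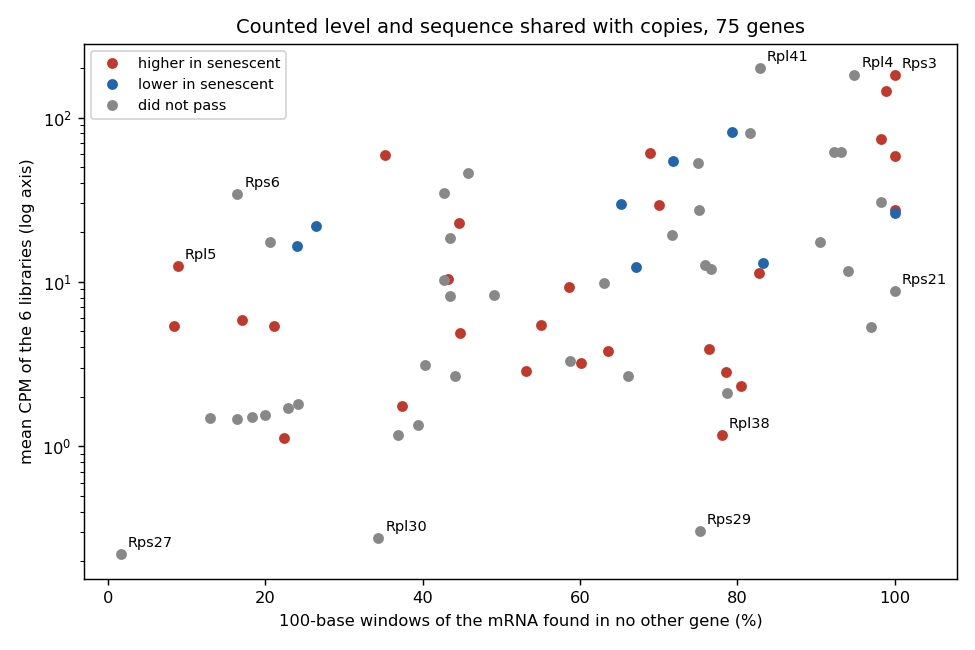
Mean CPM of the 6 libraries (log axis) against the share of 100-base mRNA windows found in no other annotated gene, for 75 tested protein-coding ribosomal protein genes; red points were higher, blue lower and grey did not pass. Rps27, with 1.63% unique windows, has the lowest CPM at 0.219, and Rpl41 the highest at 199, and called genes lie across the whole range of uniqueness.

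Several ribosomal protein genes have paralogs or related copies, and 5 of 8 listed pairs had counts enough to compare. Among the compared pairs, Rps4l is a transcribed processed pseudogene by its annotation. The log2 ratio of Rpl36al to Rpl36a was 3.10 ± 0.0411 in quiescent and 3.60 ± 0.0549 in senescent libraries (SD, n = 3 each). That of Rpl7l1 to Rpl7 was -1.56 ± 0.0407 and -1.0 ± 0.158, and that of Rps4l to Rps4x -3.52 ± 0.0973 and -3.27 ± 0.110, in the same order. Each of these 3 differences had an exact permutation p of 0.1, the smallest possible, and an adjusted p of 0.17 over the 5 pairs, so none passed, although the libraries did not overlap. The ratio of Rps27l to Rps27 differed by -0.11 (exact permutation p = 0.6) and that of Rpl22l1 to Rpl22 by -0.12 (exact permutation p = 0.8).

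Of 7 ribosomal protein and related genes outside the symbol rule, which include Rpl36al, Rpl7l1, Rps27l and Rpl22l1, 4 rose and none fell. With library totals none was higher and 2 were lower. Rpl36al had CPM of 12.8, 13.5 and 12.3 in quiescent and 17.2, 18.5 and 17.2 in senescent libraries, a log2 fold change of 0.46 ± 0.06 (SE). Rpl7l1, a nucleolar assembly factor, had one of 0.44 ± 0.06 (SE), and Fau, which encodes Rps30 fused to a ubiquitin-like protein, 0.37 ± 0.05 (SE). Rps3a1 and Rpl22l1 did not pass, with log2 fold changes of 0.01 and 0.02.

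Genes that act with the ribosomal proteins moved in both directions. Of 22 other genes with TOP sequences, 12 rose and 7 fell, with a median of 0.18, beside 36.7% and 37.8% of all genes. With library totals 3 were higher and 9 lower, beside 21.0% and 52.9%. Pabpc1, the poly(A) binding protein, had CPM of 213, 220 and 220 in quiescent and 356, 337 and 387 in senescent libraries, a log2 fold change of 0.73 ± 0.06 (SE), and Tpt1, an abundant growth-linked protein, one of 0.53 ± 0.10 (SE). Rack1, a scaffold on the small subunit, rose by 0.27 ± 0.04 (SE), and turned to -0.03 with library totals. Of the 5 elongation factor genes listed, Eef1b2 and Eef1d rose, with log2 fold changes of 0.39 and 0.46, and Eef1g did not pass at 0.07. Eef1a1, with CPM of 919, 916 and 895 against 731, 731 and 701, fell by 0.34 ± 0.05 (SE) and Eef2 by 0.16 ± 0.05 (SE), the latter with a call lost without quiescent replicate 1 or senescent replicate 1. The initiation factor Eif4b and the noncoding RNA Gas5, which carries a TOP sequence and hosts small nucleolar RNAs, had log2 fold changes of -0.43 and -0.47.

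Of 22 regulators of mTORC1 and TOP translation, 10 rose and 8 fell, beside 36.7% and 37.8% of all genes. With library totals 5 were higher and 10 lower, beside 21.0% and 52.9%. These counts lie near the shares over all genes. Eif4e, the cap-binding protein, had CPM of 10.5, 10.5 and 10.3 in quiescent and 20.9, 20.2 and 20.9 in senescent libraries, a log2 fold change of 0.99 ± 0.05 (SE). Larp1, which binds TOP mRNAs, rose by 0.63 ± 0.05 (SE), Eif4ebp1, the inhibitor of Eif4e, by 0.46 ± 0.05 (SE) and Mtor itself by 0.40 ± 0.05 (SE), although Mtor and Eif4ebp1 did not pass with library totals. Members that inhibit mTORC1 moved both ways: Ddit4 had a log2 fold change of 1.04, and the sestrins Sesn1 and Sesn3 had -1.90 and -1.03. Of 7 listed chaperones of ribosomal proteins and related assembly factors, 6 rose and 1 fell, and 5 were higher and 1 lower with library totals. Grwd1, the chaperone of Rpl3, had CPM of 3.17, 3.79 and 3.49 against 7.16, 6.78 and 8.46, a log2 fold change of 1.10 ± 0.10 (SE), while Rpl3 did not pass. Ltv1, an assembly factor of the small subunit, had 0.86 ± 0.06 (SE), and Tsr2, the chaperone of Rps26, fell by 0.24 ± 0.07 (SE), while Rps26 did not pass.

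The fibroblast markers were present: all 9 listed genes were counted in each library, with summed CPM of 3861 to 3949 in quiescent and 2193 to 2666 in senescent libraries. They moved both ways, with 3 higher and 5 lower, and 1 higher and 6 lower with library totals. The collagen Col3a1 had a log2 fold change of -1.95 and the receptor Pdgfra -1.45, against 2.72 for the surface protein Thy1, 0.32 for Vim and 0.18 for Dcn. Of 7 macrophage markers the 4 tested were all higher in senescent cells, with the summed CPM of the 7 moving from between 3.90 and 4.15 to between 10.7 and 14.1. The defining leukocyte genes were below the filter and also had more counts in senescent libraries. Ptprc had 1, 0 and 2 counts in quiescent and 9, 2 and 7 in senescent libraries, Adgre1 0, 0 and 3 against 12, 8 and 9, and Itgam 7, 5 and 2 against 22, 10 and 37. The groups did not overlap for Adgre1 and Itgam. Of the endothelial, epithelial and mesothelial markers, 3 of 5, 1 of 5 and 3 of 3 were tested, with 1, 1 and 0 higher and 1, 0 and 2 lower, and the lung epithelial factor Nkx2-1 was at 0 in all libraries. Their part in the ribosomal protein results was not tested.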

How the data were processed

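Gene counts for 6 libraries were used as the authors deposited them, 1 row per symbol, in whole numbers with no normalization. The 100 bp paired reads came from strand-specific libraries of RNA depleted of rRNA, per the labels' protocols. The submitters' processing notes name edgeR 3.32.1, limma 3.46.0 and the build mm10, with no role stated. Which aligner and counter were used, whether strand was used, and how multi-mapping reads were treated is not given in the sources used.

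All genes were tested with R 4.3.3 and edgeR 4.0.16: low rows were removed by filterByExpr at its minimum count of 10, libraries were scaled by TMM, and the robust quasi-likelihood F test was adjusted by Benjamini-Hochberg over every gene tested, with a threshold of 0.05. Standard errors are log2 fold changes over the root of F. Ratios and shares, computed per library, were compared with exact two-sided permutation tests, after adding 1 count for paralog pairs, which needed 10 counts in 3 libraries. Alternatives were DESeq2 1.42.0, limma-voom (limma 3.58.1), a block for the replicate number, other scalings, filters and thresholds, and leaving out 1 library at a time. The edgeR test was tried on simulated data first.

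Gene positions and mRNA windows of 100 bases came from GENCODE M21 (GRCm38, the assembly that mm10 names), using transcripts linked to RefSeq. Start sequences came from RefSeq (GRCm38.p6), using for each gene the entry with the longest pyrimidine run.

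The members and all gene lists were chosen with earlier results of these data known. Values are given for the 6 highest and 6 lowest fold changes, the 5 members with most and 5 with fewest counts, members below the filter, and a set of fixed genes. Further members were named as examples of their group after their values were seen. Some results are not reported here by name.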

Additional observations from a re-analysis of the deposited data

How the results depend on the processing

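The 8 lower calls became 3 with DESeq2 or at an adjusted p below 0.01, and 3 to 13 when 1 library was left out. They became 15 with upper-quartile scaling or with summed ribosomal protein counts as library size, 40 with library totals and 37 with totals without ribosomal rows. The 27 higher calls became 3 and 10 under those last scalings, and 21 to 28 when 1 library was left out. The median of 0.09 became -0.00022 (upper quartile), -0.20 (library totals), -0.13 (totals without ribosomal rows) and 0.020 (summed ribosomal protein counts), and ran from 0.064 to 0.10 when 1 library was left out.

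With library totals, higher calls numbered 3 among other TOP genes, 5 among regulators and 0 among ribosomal protein and related genes outside the symbol rule. Of the last list 2 were lower. Over all genes 21.0% were higher and 52.9% lower with that scaling. Log2 fold changes turned negative with library totals and, where a second value is given, also with totals without ribosomal rows: Rack1 -0.032, Rpl39 -0.18 and -0.099, Rps3 -0.038, Rpl10 -0.083 and -0.0075, Rpl13a -0.16 and -0.080, Rpl22 -0.18 and -0.10, Rpl4 -0.20 and -0.12, Rps19 -0.11 and -0.034, Rps27l -0.30 and -0.22, Rps3a1 -0.30 and -0.21, Rps6 -0.30 and -0.22, and Rpsa -0.12 and -0.040. The log2 ratio of Rpl22l1 to Rpl22 differed by 0.046 without senescent replicate 2 and by -0.25 without senescent replicate 3. The cause of these changes was not tested.

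Same-numbered libraries correlated at 0.05, -0.01 and 0.06 in their deviations from the group means, and differently numbered ones at -0.10 to 0.06. With 3 libraries in each group these values cannot tell whether the numbers pair the samples. With the replicate block 24 members were higher and 8 lower, with a median of 0.096. Genes below about 1 CPM, such as Rps27, Rps29 and Rpl30, had standard errors near 0.2, which limits what could pass there.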
